A study of Mus musculus with 9 samples.

Results

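Wnt ligands, their frizzled receptors, co-receptors, secreted antagonists and the core of the β-catenin pathway were described in the submandibular and sublingual salivary glands of mice. The members were the protein-coding genes of the deposited table whose symbol begins with Wnt, Fzd, Sfrp or Dkk followed by a digit, together with Lrp5, Lrp6, Axin1, Axin2, Lef1, Tcf7l1, Tcf7l2, Ctnnb1, Rnf43, Znrf3, Frzb and Wif1. The rule matched 46 of 17509 protein-coding genes, and 35 of them reached a count of 10 or more in at least 3 libraries. All 35 also passed the filter on low counts of the fit, which tested 14912 genes. The rule used no difference between groups.

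Glands came from female C57BL/6 mice 34 weeks old, with 3 sequencing libraries of polyadenylated RNA per group. Control mice ate chow. DIO mice (diet-induced obese) were fed, from 4 weeks of age and for 20 weeks, a diet in which fat supplied 60% of the calories. SG mice were DIO mice that at 24 weeks of age had about 80% of the stomach removed along its greater curvature (sleeve gastrectomy), after a 12-hour fast and under 2% isoflurane. No sham operation is mentioned for the DIO mice, and the diets eaten between week 24 and collection are not stated. Whether each library stands for a different mouse is also not stated, so the p-values measure the spread between these libraries, part of which may be technical.

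Wnt proteins are lipid-modified secreted ligands that bind the cysteine-rich domain of frizzled receptors. When Lrp5 or Lrp6 joins the complex, the axin complex that destroys β-catenin is inactivated, and β-catenin enters the nucleus to act with TCF and LEF factors. Frizzled receptors also signal without β-catenin, in planar cell polarity and in calcium signalling. Secreted frizzled-related proteins (Sfrp) and Wif1 bind Wnt outside the cell, and the membrane ubiquitin ligases Rnf43 and Znrf3 remove frizzled receptors from the surface unless R-spondins engage them through Lgr receptors. In the developing salivary gland the pathway is known for its part in branching and in the formation of ducts.

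The upstream sequences of 3 members that feature in the results below are shown, and no expression result rests on these sequences. Wnt4 was the most abundant ligand, and Fzd5 and Fzd7 were the receptors with the smallest p-values in SG against DIO, one lower and one higher in SG. Each line gives the 250 bases before the annotated start, 5′ to 3′ on the strand of the gene, from the RefSeq promoter table (mouse GRCm38.p6). The Wnt4 window lies at chr4:137277385-137277634 on the plus strand, the Fzd5 window at chr1:64737751-64738000 on the minus strand and the Fzd7 window at chr1:59481897-59482146 on the plus strand.
Wnt4: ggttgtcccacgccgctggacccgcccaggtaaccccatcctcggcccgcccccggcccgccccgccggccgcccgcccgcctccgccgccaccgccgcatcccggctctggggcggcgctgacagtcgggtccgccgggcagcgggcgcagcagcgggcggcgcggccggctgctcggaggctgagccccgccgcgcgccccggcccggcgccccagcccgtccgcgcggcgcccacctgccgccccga
Fzd5: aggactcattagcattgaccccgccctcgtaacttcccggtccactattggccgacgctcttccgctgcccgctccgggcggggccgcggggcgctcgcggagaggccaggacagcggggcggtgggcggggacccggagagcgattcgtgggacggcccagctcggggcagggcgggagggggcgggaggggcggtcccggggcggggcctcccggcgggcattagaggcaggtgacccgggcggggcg
Fzd7: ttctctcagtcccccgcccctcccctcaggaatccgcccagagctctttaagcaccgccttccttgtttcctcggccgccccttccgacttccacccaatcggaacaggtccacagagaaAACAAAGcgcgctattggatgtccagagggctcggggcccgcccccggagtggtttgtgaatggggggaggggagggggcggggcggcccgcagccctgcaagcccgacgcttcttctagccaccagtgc
Capitals mark a match to 1 of 4 letter strings of the kind that TCF and LEF factors are known to bind, namely the string CTTTGAT, then CTTTGAA as a variant of it, and likewise CTTTGTT with its own variant CTTTGTA. These strings share their first bases and were searched on both strands. The match in Fzd7 is CTTTGTT read on the minus strand and begins 130 bases before the start that RefSeq annotates. The bases just after that start were found in a GENCODE transcript of the same gene for 22 of the 30 member windows described next, Wnt4 and Fzd5 included, but not for Fzd7 or for the Lef1 and Tcf7l2 windows with a match, so those distances rest on RefSeq alone. Windows were matched for 21 of the 35 members (not for Wnt5a, Wnt7b, Wnt10a, Fzd2, Fzd3, Fzd6, Fzd8, Lrp5, Lrp6, Sfrp1, Sfrp4, Dkk3, Znrf3 and Axin1), some of which have several starts, giving 30 windows. Of these windows 5 (16.7%) held a match, in Wnt5b, Wnt11, Fzd7, Lef1 and Tcf7l2, against 14.8% of all 32851 windows in the table. The median GC content was 66.6% in the 30 member windows and 52.4% in all windows. GC content was 85.2% in the Wnt4 window, 76.4% in Fzd5 and 65.2% in Fzd7. A letter match is a description of these windows and not a measured binding site.

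Libraries held 36349885 to 43495564 counts, and the 46 members together took 0.0734% to 0.0881% of them. Levels are given as CPM, counts brought to a common library size after TMM scaling, to compare libraries, and as the deposited FPKM, which divides by gene length, to compare genes. A count of 3, used as the floor of detection, equalled 0.0674 to 0.0833 CPM, which covers counting error only. The tissue labels were checked with marker lists: acinar markers summed to 7732 to 12859 CPM and granular duct markers to 22116 to 38818 CPM over the 9 libraries. Markers of lymphocytes, cells known to express Lef1, differed widely between libraries. The 8 B cell and lymph node markers summed to 0.890 to 125 CPM in the control libraries, 15.8 to 40.5 in those of DIO and 3.10 to 6.27 in those of SG, and the 7 measured T cell markers to 1.71 to 53.4, 11.7 to 26.2 and 3.79 to 4.83. The highest sums of both lists were those of control 2, which also had the highest cell cycle sum (121.5 CPM, against 6.97 to 12.5 in SG and 12.2 to 24.0 in DIO), the highest adipocyte sum (84.6 CPM, against 15.2 to 39.3 in the others) and the most of the parotid amylase gene Amy1 (8377 CPM, against 11.8 to 1673 elsewhere). Control 2 correlated least with the other libraries (mean rank correlation over genes 0.973, against 0.985 to 0.987), so of the differences against control printed for the 19 members shown library by library, those that moved by more than 0.1 on the log2 scale without it are given both ways. Of 13 marker lists, the endothelial and parotid sums were lower and the Schwann cell and nerve sum higher in DIO than in control without overlap. Between SG and DIO the B cell, T cell and parotid sums did not overlap, and between SG and control the cell cycle sum did not. The parotid list, which genes also active in these glands dominate, summed to 110681 to 142190 CPM in DIO and 110681 to 170575 over all libraries, and the Schwann cell list to 144 to 165. Their part in the results below was not tested.

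Of the 35 members, Fzd6 in SG against control was the 1 that passed a test, and in DESeq2 alone. EdgeR's quasi-likelihood test with Benjamini-Hochberg adjustment (adjusted p under 0.05) called 0 in DIO against control (14 of all 14912 genes, 0.0939%), 0 in SG against DIO (0% of all genes) and 0 in SG against control (0% of all genes). DESeq2, the second tool, called 0, 0 and 1, against 1.24%, 0.568% and 0.341% of all genes. At an unadjusted edgeR p under 0.05 there were 4 members in DIO against control, all higher in DIO (Fzd5, Tcf7l1, Fzd6 and Axin1), against 10.3% of all genes (5.22% higher and 5.08% lower). SG against DIO had 3, with Fzd6 and Fzd7 higher and Fzd5 lower, against 8.93% (3.78% higher and 5.15% lower). SG against control had 5, with Fzd6, Fzd7 and Znrf3 higher and Lef1 and Dkk3 lower, against 8.1% (3.47% higher and 4.63% lower). With 1 library left out, these counts were 2 to 5, 2 to 5 and 1 to 6 in the same order. In SG against control, Fzd6 alone was left without control 2 or without SG 2, Fzd6 and Lef1 without SG 3, and Fzd6 and Fzd7 with limma at either pseudocount. The 4 members of DIO against control came down to Fzd5 and Tcf7l1 without DIO 1 or without DIO 2, and without control 2 they were Fzd5, Tcf7l1 and Lef1. SG against DIO had 5 without control 2, with Lef1 and Tcf7l2 added, and Fzd6 and Fzd7 without SG 2. Its members were Fzd6, Fzd7, Tcf7l2 and Wnt10a without DIO 2, and Fzd5, Fzd7 and Tcf7l1 without SG 1. Neither Fzd6 nor Fzd7 was left without DIO 3 (Fzd5, Sfrp1 and Wnt4) or with library totals (Fzd4 and Fzd5). The same held with limma on log2(FPKM + 0.1) (Fzd5, Fzd9 and Sfrp5) and on log2(FPKM + 1), which added Axin1. The DIO and control libraries did not overlap for 4 of the 35 members, all higher in DIO, against 16.3% of all genes (8.94% higher and 7.38% lower). SG and DIO did not overlap for 6 members, 3 higher and 3 lower, against 16.3% (6.57% higher and 9.74% lower). SG and control did not overlap for 5, 3 higher and 2 lower, against 11.8% (6.63% higher and 5.22% lower). In total, the members' counts were near these shares of all genes outside SG against control. In SG against control the 5 members at an unadjusted p under 0.05 and the 1 DESeq2 call were larger shares than in all genes. The counts of DIO against control were near in total but not by direction, as all 4 members were higher. These small counts were not tested as a set. The members' median log2 fold change was 0.02, -0.00 and 0.08, beside 0.01, -0.00 and 0.00 over all genes tested.

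**Figure D1:**
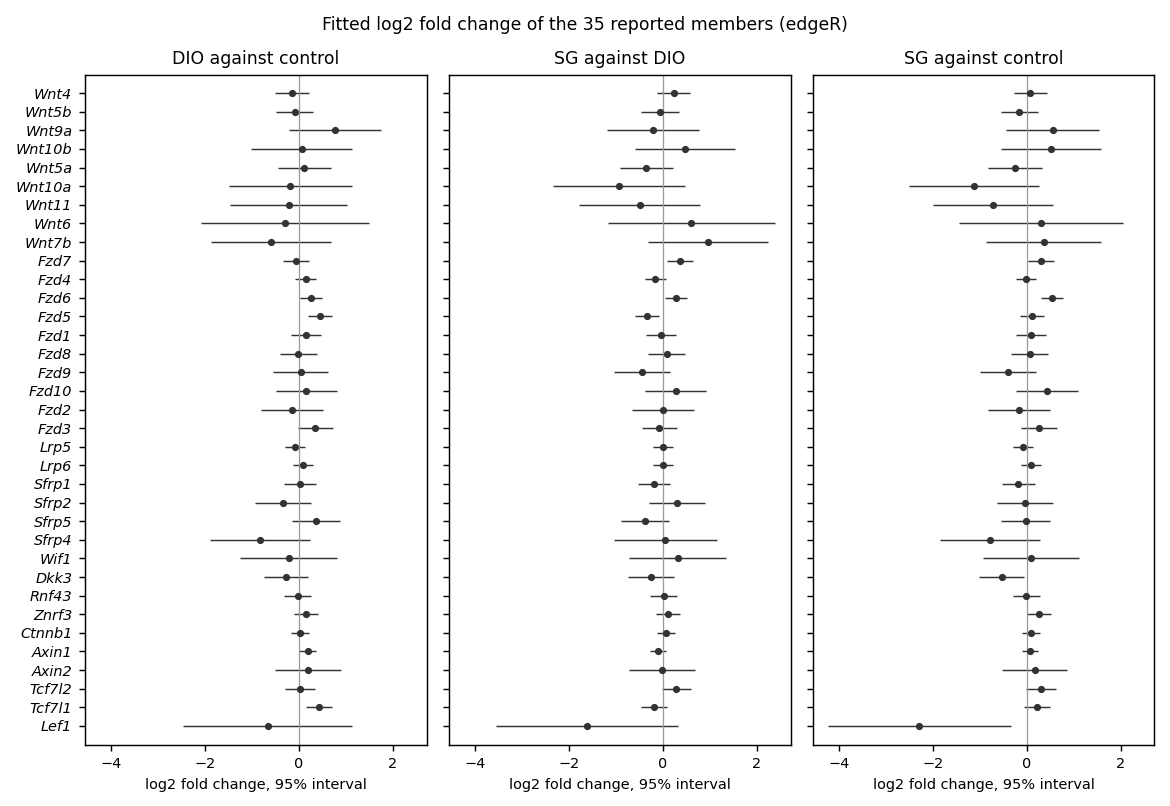
Fitted log2 fold change of the 35 reported members with its 95% interval, by comparison, ordered by role and then by level, on 1 shared axis. Most intervals include 0. The intervals of Fzd5 and Fzd6 in DIO against control, of Fzd5, Fzd6 and Fzd7 in SG against DIO and of Fzd6 in SG against control are among those that do not, and low ligands and Lef1 have the widest.

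Among the Wnt ligands, 9 of 18 were reported. Wnt4, a ligand known from kidney tubule formation and the female reproductive tract, held most of the ligand transcript. Its level over all 9 libraries was 19.5 FPKM, against 1.70 for Wnt5b, the next. Of the summed FPKM of the 18 ligands, Wnt4 made up 86.2% ± 3.02 in control, 85.4% ± 2.36 in DIO and 87.7% ± 2.00 in SG (SD, n = 3), and at least 82.8% in every library. Wnt5b, a ligand that acts largely without β-catenin, made up 8.01% ± 1.87 in control, 8.19% ± 1.36 in DIO and 6.85% ± 1.27 in SG. The other 7 reported ligands were at 0.331 FPKM for Wnt9a, 0.257 for Wnt10b, 0.170 for Wnt5a, 0.155 for Wnt10a, 0.125 for Wnt11, 0.120 for Wnt6 and 0.0542 for Wnt7b. In bulk tissue a lower level may mean fewer cells that express the gene or less RNA per cell, and these cannot be told apart.

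Wnt4 (NCBI gene 22417) was measured at 79.2, 61.5 and 86.9 CPM in the control libraries, 64.5, 57.0 and 83.1 in DIO and 70.8, 90.1 and 79.3 in SG. The 3 ranges overlapped, and the log2 fold changes with their 95% intervals were -0.15 (-0.51 to 0.20) for DIO against control, 0.23 (-0.12 to 0.59) for SG against DIO and 0.08 (-0.28 to 0.43) for SG against control. Without control 2 the Wnt4 values were -0.31 for DIO against control and -0.07, with the sign turned, for SG against control. Wnt5b (NCBI gene 22419) stood at 6.15, 5.81 and 4.74 CPM in the control libraries, 6.00, 4.43 and 5.23 in DIO and 5.03, 4.36 and 5.61 in SG, again with overlapping groups. Its log2 fold changes were -0.09 (-0.49 to 0.31), -0.06 (-0.46 to 0.34) and -0.15 (-0.55 to 0.24) in the same order. None of the 9 ligands passed an adjusted p of 0.05 in edgeR's quasi-likelihood test or in DESeq2, nor an unadjusted p of 0.05 in edgeR, in any of the 3 comparisons. In DESeq2, 3 of them, Wnt6, Wnt7b and Wnt10a, received no adjusted p in SG against DIO. The median log2 fold change of the ligands was -0.15, -0.06 and 0.08. The median of -0.15 depends on control 2. Without that library, DIO against control turned from -0.22 to 0.60 for Wnt11, -0.60 to 0.19 for Wnt7b and -0.30 to 0.05 for Wnt6. It turned the other way for Wnt10b (0.05 to -0.33). Their intervals were widest where counts were low: Wnt6, with 1 to 19 counts per library, had a log2 fold change of 0.61 (-1.17 to 2.39) in SG against DIO. Wnt7b, with 5 to 20 counts, did not overlap between SG and DIO (log2 fold change 0.96, 95% interval -0.31 to 2.23), and Wnt10a, with 4 to 23 counts, did not overlap between SG and control (log2 fold change -1.13, 95% interval -2.52 to 0.26).

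The 11 members under the count rule were Wnt1, Wnt2, Wnt2b, Wnt3, Wnt3a, Wnt8a, Wnt8b, Wnt9b, Wnt16, Frzb and Dkk2. Their counts ran from 0 to 12 per library. Wnt3a and Wnt1, 2 of the ligands best known for β-catenin signalling, had at most 6 and 1 counts in any library.

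**Figure D2:**
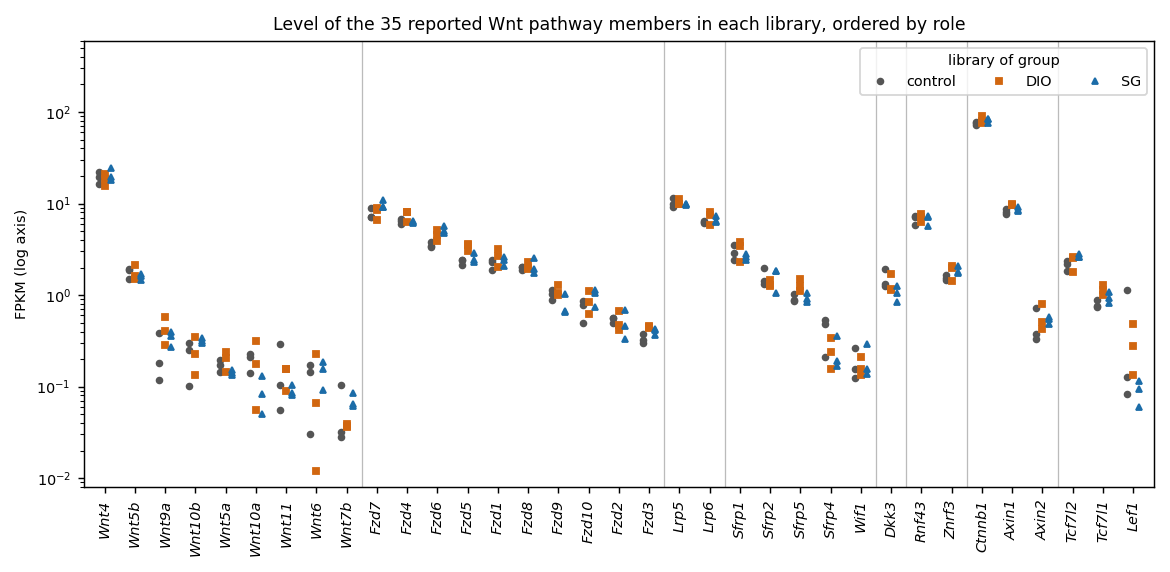
FPKM of the 35 reported members (log axis), 1 point per library, by group and ordered by role (ligands, frizzled receptors, co-receptors, Sfrp and Wif1, Dkk3, ubiquitin ligases, β-catenin and axins, TCF and LEF factors, separated by lines). Wnt4 at 19.5 FPKM over all libraries stands above the other ligands, and the 9 points of Lef1 spread more widely than those of Tcf7l1 and Tcf7l2.

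All 10 frizzled receptors were reported. Fzd7, a receptor known from intestinal stem cells, had the highest level over all libraries (8.49 FPKM), followed by Fzd4 (6.71), which is also the receptor of norrin in retinal vessels, and Fzd6 (4.39), known from planar polarity of the skin and hair. Below them were Fzd5 (2.75), Fzd1 (2.39), Fzd8 (2.03), Fzd9 (0.970), Fzd10 (0.849), Fzd2 (0.517) and Fzd3 (0.396). No frizzled receptor passed the adjusted threshold in edgeR. The receptors with the smallest p-values were Fzd5, Fzd6 and Fzd7, and each had a different order of the 3 groups.

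Fzd5 (NCBI gene 14367), known for its part in the maturation of Paneth cells in the gut, was highest in DIO. It was measured at 17.7, 14.3 and 17.4 CPM in the control libraries, 22.6, 23.2 and 21.8 in DIO and 20.5, 15.9 and 16.9 in SG. The 3 DIO libraries were above every other library, and control and SG overlapped. The log2 fold change of DIO against control was 0.45 (SE 0.12, 95% interval 0.20 to 0.71), with an unadjusted p of 0.00246 and an adjusted p of 0.213 in edgeR and 0.0896 in DESeq2. Without control 2, the library with the lowest Fzd5 of all 9, it was 0.34 (edgeR adjusted p = 0.230). For SG against DIO it was -0.34 (SE 0.12, 95% interval -0.60 to -0.09) with an edgeR adjusted p of 0.470, and for SG against control 0.11 (SE 0.12, 95% interval -0.15 to 0.37) with 0.854, or 0.01 without control 2. The first pair of these comparisons shares the DIO libraries, so their opposite signs are not independent.

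Fzd6 (NCBI gene 14368) was lowest in control and highest in SG. Its levels were 18.0, 14.9 and 15.3 CPM in the control libraries, 20.4, 19.4 and 17.9 in DIO and 25.9, 21.6 and 22.7 in SG. Each SG library was above each DIO and control library, while DIO 3 was just under control 1. SG against control gave a log2 fold change of 0.54 (SE 0.11, 95% interval 0.31 to 0.78). This difference passed in DESeq2 (adjusted p = 0.0161) and not in edgeR (adjusted p = 0.344, unadjusted p = 0.000335), where it ranked 10 of 14912 genes. Over the 18 alternatives and the reported value the log2 fold change stayed between 0.45 and 0.63, with an adjusted p of 0.0161 to 0.772, and without control 2 it was 0.48 (edgeR adjusted p = 0.522). The log2 fold change was 0.26 (SE 0.11, 95% interval 0.03 to 0.49) for DIO against control (edgeR adjusted p = 0.430) and 0.28 (SE 0.11, 95% interval 0.05 to 0.52) for SG against DIO (edgeR adjusted p = 0.495).

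Fzd7 (NCBI gene 14369) was higher in the SG libraries than in every DIO library. It stood at 46.0, 33.5 and 35.9 CPM in the control libraries, 36.7, 40.8 and 32.7 in DIO and 44.5, 50.1 and 47.6 in SG. Control 1 lay inside the SG range, and control and DIO overlapped. SG against DIO gave a log2 fold change of 0.37 (SE 0.12, 95% interval 0.09 to 0.64, edgeR adjusted p = 0.470), SG against control 0.30 (SE 0.12, 95% interval 0.03 to 0.58, edgeR adjusted p = 0.590) and DIO against control -0.07 (SE 0.12, 95% interval -0.34 to 0.21, edgeR adjusted p = 0.906). Without control 2 the values against control were 0.20 for SG (edgeR adjusted p = 0.919) and -0.18 for DIO. Fzd4 (NCBI gene 14366) was measured at 51.5, 45.0 and 44.1 CPM in the control libraries, 52.5, 55.7 and 47.0 in DIO and 46.2, 42.3 and 50.5 in SG, with overlap between all groups. Its log2 fold changes were 0.14 (-0.08 to 0.36) for DIO against control, -0.16 (-0.38 to 0.06) for SG against DIO and -0.02 (-0.24 to 0.20) for SG against control. The endothelial marker sum, given because Fzd4 is known from vessels, was 113 to 154 CPM in the control libraries, 95.5 to 107 in those of DIO and 104 to 138 in those of SG.

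**Figure D3:**
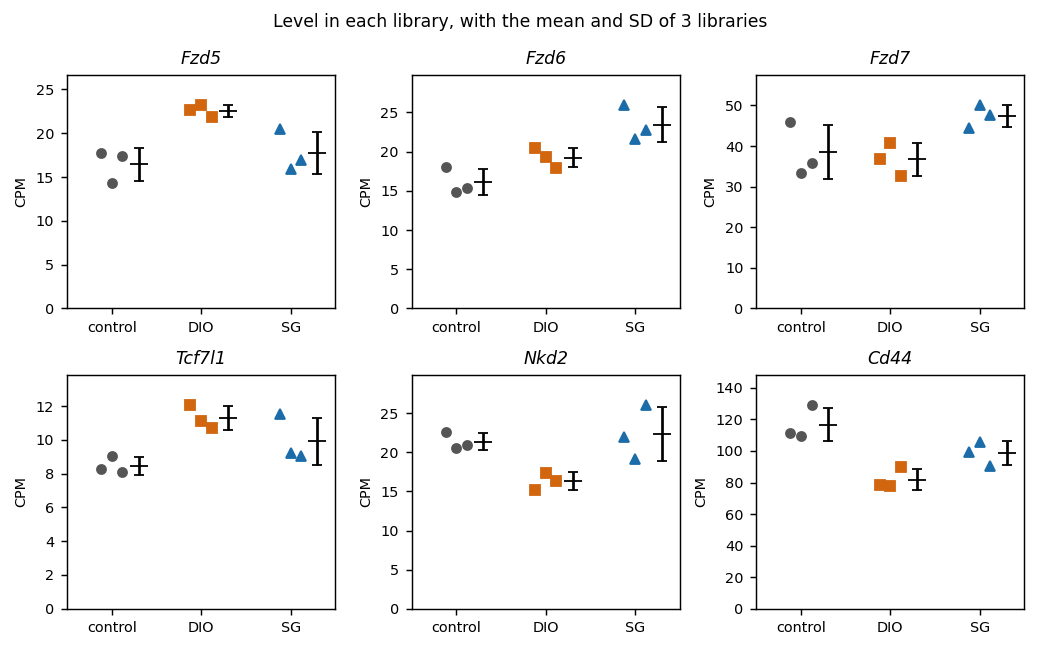
CPM in each library (points, 3 per group) with the mean and SD of the 3 libraries (dash and bars) for Fzd5, Fzd6, Fzd7, Tcf7l1, Nkd2 and Cd44, with axes from 0. The DIO libraries are highest for Fzd5 (21.8 to 23.2 CPM) and lowest for Nkd2 and Cd44, and the SG libraries are highest for Fzd6 (21.6 to 25.9 CPM).

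The make-up of the frizzled receptors within a library does not depend on how libraries are scaled to each other. Of the summed FPKM of the 10 receptors, Fzd6 made up 13.0% to 13.4% in the control libraries, 14.1% to 14.9% in those of DIO and 15.8% to 18.6% in those of SG, 3 ranges that did not overlap. Fzd5 made up 8.26% to 9.53% in the control libraries, 10.7% to 11.4% in those of DIO and 7.50% to 9.50% in those of SG, so that the DIO range lay above both others. The share of Fzd7 was 28.0% to 30.8% in the control libraries, 24.6% to 27.5% in those of DIO and 29.6% to 34.0% in those of SG, lowest in DIO. Fzd4 made up 23.0% to 25.1% in the control libraries, 23.6% to 25.0% in those of DIO and 19.1% to 21.8% in those of SG, with the SG range below both others. A share moves with every receptor in the sum, and these shares were not tested.

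**Figure D4:**
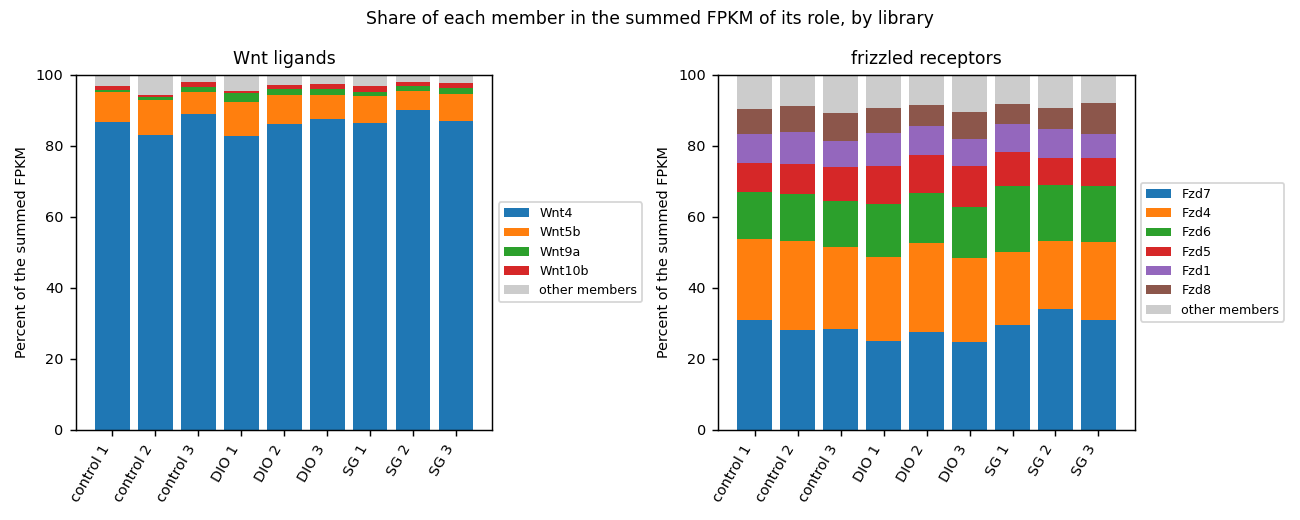
Percent of the summed FPKM of the 18 matched Wnt ligands (left) and the 10 frizzled receptors (right) taken by single members in each library, as stacked bars of 100%. Wnt4 takes 82.8% to 90.0% of the ligand sum in all libraries, while Fzd7, Fzd4 and Fzd6 together take the larger part of the receptor sum and their shares differ between libraries.

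Among the remaining 6 receptors, DIO and control did not overlap for 1, Fzd3, known from axon guidance and planar polarity. It was at 5.13, 3.72 and 4.23 CPM in the control libraries, 5.19, 5.24 and 6.14 in DIO and 5.54, 5.09 and 5.05 in SG, all DIO libraries being above the control libraries (log2 fold change 0.34, SE 0.17, 95% interval -0.03 to 0.72, edgeR adjusted p = 0.528), and 0.22 without control 2. The other 5, Fzd1, Fzd2, Fzd8, Fzd9 and Fzd10, overlapped in all comparisons, with log2 fold changes from -0.44 (Fzd9, SG against DIO) to 0.43 (Fzd10, SG against control). The median log2 fold change of the 10 receptors was 0.14 for DIO against control, -0.02 for SG against DIO and 0.10 for SG against control. The medians against control depend on control 2. Without that library the values of all 10 receptors were lower in both of these comparisons. In DIO against control Fzd10 turned from 0.16 to -0.09 and Fzd9 from 0.04 to -0.10. In SG against control Fzd8 turned from 0.06 to -0.02.

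The co-receptors Lrp5, known for its effect on bone mass, and Lrp6 stood at 10.1 and 6.68 FPKM over all libraries. Lrp5 (NCBI gene 16973) was measured at 50.6, 50.4 and 61.9 CPM in the control libraries, 52.2, 48.2 and 53.5 in DIO and 52.0, 48.7 and 53.9 in SG. Lrp6 (NCBI gene 16974) was at 60.5, 58.4 and 61.1 CPM in the control libraries, 67.5, 66.8 and 56.7 in DIO and 69.6, 57.6 and 63.4 in SG. For both genes all groups overlapped. The 95% intervals were narrow: for SG against DIO, the log2 fold change was 0.01 (-0.21 to 0.22) for Lrp5 and -0.00 (-0.22 to 0.21) for Lrp6.

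Of the secreted antagonists that bind Wnt, 5 of 6 were reported and Frzb was not. Sfrp1 led at 2.91 FPKM, followed by Sfrp2 (1.49), Sfrp5 (1.05), Sfrp4 (0.297) and Wif1 (0.181). Sfrp1 (NCBI gene 20377) was at 13.6, 15.5 and 11.3 CPM in the control libraries, 15.3, 14.8 and 10.7 in DIO and 13.0, 11.2 and 11.6 in SG. Sfrp2 (NCBI gene 20319) was at 4.20, 2.59 and 2.96 CPM in the control libraries, 2.65, 2.46 and 2.60 in DIO and 2.13, 3.51 and 3.89 in SG. All groups overlapped for both. Their log2 fold changes in DIO against control were 0.01 (-0.33 to 0.36) and -0.34 (-0.93 to 0.26), the latter -0.50 without control 2. For Sfrp5 each SG library (1.63 to 1.90 CPM) was below each DIO library (1.99 to 2.55 CPM), with a log2 fold change of -0.38 (SE 0.23, 95% interval -0.90 to 0.13) and an edgeR adjusted p of 0.675. Sfrp4 and Wif1, with 10 to 40 counts per library, had log2 fold changes from -0.83 (Sfrp4, DIO against control) to 0.32 (Wif1, SG against DIO) and overlapping groups.

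Dkk3, a divergent member of the Dickkopf family of secreted proteins, was the 1 of 2 Dickkopf genes reported. Dkk3 (NCBI gene 50781) was at 5.03, 6.83 and 4.69 CPM in the control libraries, 5.46, 3.98 and 4.20 in DIO and 4.60, 3.63 and 3.22 in SG. The 3 SG libraries were below the 3 control libraries, and DIO overlapped both. The log2 fold change of SG against control was -0.53 (SE 0.22, 95% interval -1.01 to -0.05) with an edgeR adjusted p of 0.590, and -0.36 (adjusted p = 0.910) without control 2, the highest library.

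The ubiquitin ligases Rnf43 and Znrf3 were at 6.82 and 1.75 FPKM over all libraries. Rnf43 (NCBI gene 207742) was at 34.1, 25.8 and 34.0 CPM in the control libraries, 29.0, 33.2 and 29.9 in DIO and 26.5, 31.6 and 34.9 in SG, with overlapping groups and log2 fold changes of -0.03 (-0.31 to 0.26), 0.01 (-0.27 to 0.30) and -0.01 (-0.30 to 0.27) for DIO against control, SG against DIO and SG against control. The Rnf43 values against control were -0.17 for DIO and -0.15 for SG without control 2. Znrf3 (NCBI gene 407821) was at 11.9, 11.4 and 13.0 CPM in the control libraries, 14.2, 14.6 and 11.3 in DIO and 14.1, 15.2 and 14.2 in SG. Every SG library was above every control library (log2 fold change 0.26, SE 0.11, 95% interval 0.00 to 0.51, edgeR adjusted p = 0.611), while DIO 1 and DIO 2 lay within the SG range and DIO 3 below every control library.

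β-Catenin itself, Ctnnb1 (NCBI gene 12387), which also joins cadherins at cell contacts, was the most abundant member at 79.5 FPKM. It was measured at 294, 279 and 270.4 CPM in the control libraries, 294, 275 and 285 in DIO and 309, 293 and 291 in SG. The groups overlapped, and the log2 fold changes were 0.02 (-0.17 to 0.21), 0.07 (-0.12 to 0.26) and 0.08 (-0.11 to 0.27), among the narrowest intervals of all members. The scaffold gene Axin1 (NCBI gene 12005) was at 33.3, 34.2 and 33.8 CPM in the control libraries, 36.2, 37.6 and 40.9 in DIO and 37.5, 33.2 and 36.1 in SG, the DIO libraries being above the control libraries (log2 fold change 0.18, SE 0.08, 95% interval 0.01 to 0.35, edgeR adjusted p = 0.471).

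Axin2, a scaffold that is also a widely used target gene of β-catenin, was low at 0.532 FPKM. Axin2 (NCBI gene 12006) was at 1.86, 3.81 and 2.09 CPM in the control libraries, 3.84, 2.17 and 2.84 in DIO and 2.97, 2.44 and 3.33 in SG. Control 2 and DIO 1 were the highest libraries and all groups overlapped. The log2 fold changes were 0.19 (-0.51 to 0.88) for DIO against control, -0.02 (-0.71 to 0.68) for SG against DIO and 0.17 (-0.53 to 0.86) for SG against control. Without control 2 the DIO against control value was 0.55 (edgeR adjusted p = 0.421) and the SG against control value 0.54 (adjusted p = 0.889).

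Of the TCF and LEF factors, Tcf7l2 was at 2.37 FPKM, Tcf7l1, which is known mainly as a repressor, at 0.959 and Lef1 at 0.280. Tcf7l1 (NCBI gene 21415) was at 8.25, 9.06 and 8.08 CPM in the control libraries, 12.0, 11.1 and 10.7 in DIO and 11.5, 9.19 and 9.02 in SG. The DIO libraries were above the control libraries, and SG 1 lay within the DIO range. DIO against control gave a log2 fold change of 0.41 (SE 0.13, 95% interval 0.14 to 0.69, edgeR adjusted p = 0.289, DESeq2 adjusted p = 0.230), and 0.44 without control 2. Tcf7l2 (NCBI gene 21416) was at 15.1, 11.6 and 15.9 CPM in the control libraries, 15.0, 16.2 and 12.0 in DIO and 18.6, 16.1 and 18.0 in SG, with each SG library above each control library (log2 fold change 0.31, SE 0.14, 95% interval -0.01 to 0.62, edgeR adjusted p = 0.626). Without control 2, its lowest library, this was 0.17 (edgeR adjusted p = 0.953).

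Lef1 (NCBI gene 16842) had the widest intervals of the 19 members given library by library. Its levels were 0.612, 5.07 and 0.385 CPM in the control libraries, 1.12, 2.10 and 0.619 in DIO and 0.432, 0.260 and 0.555 in SG. Control 2 was far above all others, and every SG library was below every DIO library. The log2 fold change was -0.67 (SE 0.82, 95% interval -2.46 to 1.13) for DIO against control, -1.61 (SE 0.88, 95% interval -3.56 to 0.33) for SG against DIO and -2.28 (SE 0.88, 95% interval -4.23 to -0.34) for SG against control, with edgeR adjusted p-values of 0.833, 0.639 and 0.590. Without control 2 the first turned to 1.34 (adjusted p = 0.311) and the last was -0.27 (adjusted p = 0.988). The SG against DIO value was -1.05 without DIO 2 and ran from -1.94 to -0.24 over the 18 alternatives, the upper end being limma on log2(FPKM + 1), a scale that compresses changes of low genes. Tcf7, the related factor that T cells are known to express, stood at 3.19, 24.5 and 1.40 CPM in the control libraries, 8.28, 9.38 and 4.46 in DIO and 2.39, 1.87 and 2.30 in SG, with control 2 highest and SG below DIO as for Lef1. The B cell and lymph node sum in control 1, 2 and 3 was 7.85, 125 and 0.890 CPM, in the same order as Lef1. In DIO 1, 2 and 3 it was 23.9, 40.5 and 15.8 CPM, again in that order. In SG it was 3.10, 3.66 and 6.27 CPM and the order differed, since SG 2 had the lowest Lef1 but not the lowest sum. The T cell sum in control 1, 2 and 3 was 6.22, 53.4 and 1.71 CPM, in the order of Lef1. In DIO 1, 2 and 3 the T cell sum was 26.2, 21.4 and 11.7 CPM, highest in DIO 1, whereas Lef1 was highest in DIO 2. In SG 1, 2 and 3 it was 4.83, 3.79 and 4.80 CPM, highest in SG 1, whereas Lef1 was highest in SG 3. All 8 genes of the B cell and lymph node list and all 7 of the T cell list were at a lower level in SG than in DIO. The 3 B cell genes Pax5, Cr2 and Fcer2a were at 0 in control 3. The part of lymphocytes in the Lef1 levels was not tested.

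**Figure D5:**
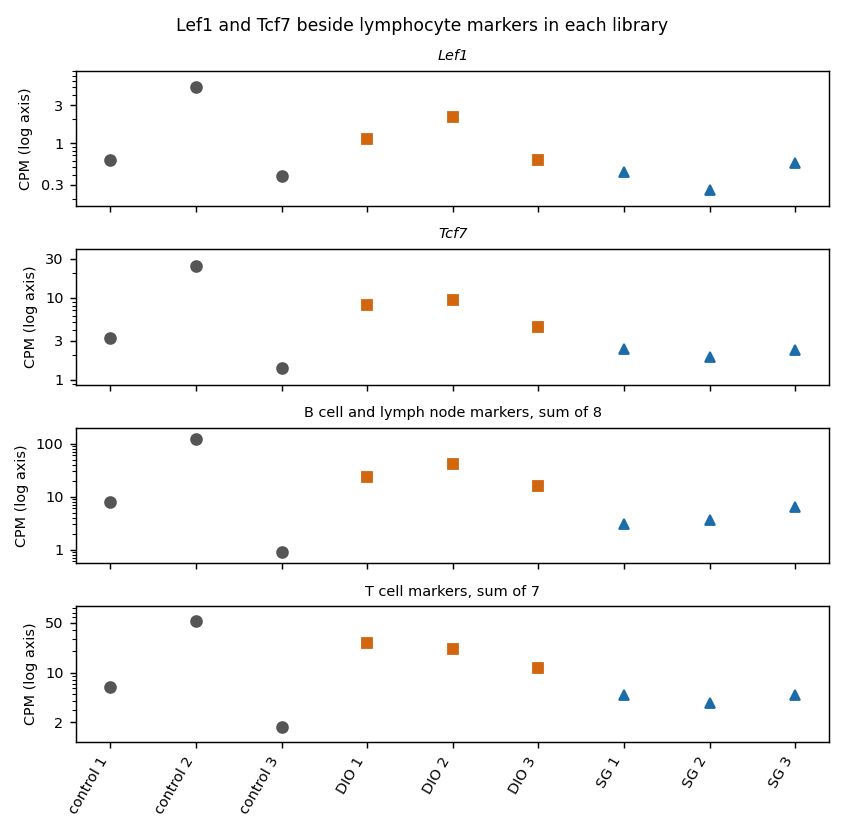
CPM of Lef1 and Tcf7 and the summed CPM of 8 B cell and lymph node markers and 7 T cell markers in each of the 9 libraries, on log axes. Control 2 is the highest library in all 4 panels (Lef1 5.07 CPM), and the 3 SG libraries are below the 3 DIO libraries in each.

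The other genes of the pathway were counted in 4 lists. In the list of Wnt secretion genes, R-spondins and other receptors (19 measured, 17 tested), edgeR and DESeq2 called 0 in each comparison. Wls, the carrier that brings Wnt to the cell surface, was at 78.3 ± 1.18 CPM in control, 71.2 ± 4.76 in DIO and 78.5 ± 5.77 in SG (SD, n = 3). Its deposited FPKM over all libraries was 13.1, against 1.96 for Porcn, the enzyme that attaches the lipid to Wnt. Ptk7, a pseudokinase receptor, was at 15.0, 13.5 and 17.0 CPM in the control libraries, 13.7, 12.7 and 13.4 in DIO and 14.8, 18.0 and 17.1 in SG, with SG above DIO (log2 fold change 0.32, SE 0.11, 95% interval 0.08 to 0.57, edgeR adjusted p = 0.472). Rspo1, an R-spondin, was at 0.798, 0.924 and 0.842 CPM in the control libraries, 0.704, 0.472 and 0.696 in DIO and 0.483, 0.519 and 0.50 in SG, with SG below control (log2 fold change -0.77, SE 0.33, 95% interval -1.51 to -0.03, edgeR adjusted p = 0.590). Among the Lgr receptors of R-spondins, Lgr4 was at 4.27 FPKM and Lgr5 at 0.0680 over all libraries. Lgr4 overlapped between SG and control (log2 fold change 0.29, SE 0.12, 95% interval 0.02 to 0.56, edgeR adjusted p = 0.590).

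In the list of intracellular pathway genes (24 tested), edgeR called 0 in each comparison and DESeq2 called 1, Csnk1d, in DIO against control. Of all genes, DESeq2 called 1.24% in that comparison. Of the 24 genes, 3 did not overlap in DIO against control and 6 in SG against DIO, beside 16.3% of all genes in each. In SG against control 5 of the 24 did not overlap, beside 11.8% of all genes. Csnk1d, a kinase of the casein kinase family, was at 75.8, 76.0 and 81.1 CPM in the control libraries, 97.5, 97.4 and 94.3 in DIO and 91.2, 89.8 and 87.8 in SG, with the 3 groups not overlapping. Its log2 fold change in DIO against control was 0.31 (SE 0.07, 95% interval 0.15 to 0.47), with an adjusted p of 0.203 in edgeR and 0.0121 in DESeq2. The median of the list was 0.04, -0.08 and -0.00 for the comparisons in the same order as above. Csnk1e was higher in each DIO library than in each control library (log2 fold change 0.19, 95% interval -0.01 to 0.38), and the co-repressor Tle1 lower in each SG library than in each DIO library (log2 fold change -0.20, 95% interval -0.40 to -0.01).

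In the list of β-catenin target genes that are not members (14 of 16 tested), edgeR called 0 in each comparison and DESeq2 called 1, Cd44, in DIO against control. Of all genes, DESeq2 called 1.24% in that comparison. Cd44, a hyaluronan receptor that many cell types and leukocytes express, was at 112, 109.6 and 129 CPM in the control libraries, 78.1, 77.7 and 89.6 in DIO and 99.6, 106 and 90.4 in SG. The DIO libraries were below all control and SG libraries. The log2 fold change of DIO against control was -0.51 (SE 0.10, 95% interval -0.74 to -0.29), with an adjusted p of 0.116 in edgeR and 0.000331 in DESeq2, and that of SG against DIO was 0.27 (SE 0.10, 95% interval 0.05 to 0.49, edgeR adjusted p = 0.495). Without control 2, DIO against control was -0.58 for Cd44 and passed in edgeR (adjusted p = 0.0300), where 140 of all genes were called. In the same fit Tcf7, also in this list, passed in SG against DIO (log2 fold change -1.74, edgeR adjusted p = 0.0352). There 117 of all genes were called. The DIO against control value of Tcf7 did not pass (edgeR adjusted p = 0.0510). Nkd2, an inhibitor that binds Dishevelled, was at 22.6, 20.5 and 21.0 CPM in the control libraries, 15.1, 17.4 and 16.4 in DIO and 22.0, 19.2 and 26.0 in SG, also with DIO below both other groups. Its log2 fold change was -0.39 (SE 0.11, 95% interval -0.64 to -0.14) for DIO against control (edgeR adjusted p = 0.265) and 0.46 (SE 0.11, 95% interval 0.21 to 0.71) for SG against DIO (edgeR adjusted p = 0.400). These comparisons share the DIO libraries. Ephb2, a receptor tyrosine kinase, was at 0.280 ± 0.107 CPM in control, 0.484 ± 0.240 in DIO and 0.649 ± 0.0327 in SG. The median of the list was -0.19, -0.03 and 0.01, beside 0.01, -0.00 and 0.00 over all genes. The median of -0.19 depends on control 2. Without that library, DIO against control turned from -0.40 to 1.67 for Tcf7, -0.47 to 0.24 for Lgr5 and -0.03 to 0.07 for Nkd1. It turned the other way for Tnfrsf19 (0.06 to -0.02) and Sox9 (0.06 to -0.0047).

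In the planar polarity list (10 of 11 tested), edgeR and DESeq2 called 0 in each comparison, with medians of 0.04, 0.01 and -0.03. Prickle1, a cytoplasmic polarity protein, was lower in each DIO library than in each control library (log2 fold change -0.41, SE 0.19, 95% interval -0.83 to 0.00, edgeR adjusted p = 0.490, and -0.30 without control 2). Vangl1 (log2 fold change 0.23, 95% interval -0.14 to 0.60 in SG against control), Dact1 (log2 fold change -0.34, 95% interval -1.09 to 0.42 in SG against DIO) and Invs (log2 fold change -0.33, 95% interval -0.96 to 0.30 in SG against DIO) overlapped between the groups.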

How the data were processed

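Polyadenylated RNA of 9 libraries in 3 groups of 3 was sequenced from VAHTS Universal V6 libraries, per the labels' protocols. Per the submitters' processing notes, HISAT2 and Salmon (versions not given) and build GRCm39 were used. The sources used here do not state the counting rule, strand setting or annotation release. Deposited by the authors were whole-number counts per gene without scaling, and a table of FPKM for the same genes, values that divide by gene length and library size. For 99.2% of nonzero values the ratio of count to FPKM lay within 1% of the gene's median after 1 factor per library.

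Deposited counts were compared in R 4.3.3 with the quasi-likelihood F test of edgeR 4.0.16, using TMM, filterByExpr by group and 1 fit of all 9 libraries (common biological coefficient of variation 0.206, 6 residual and 4.90 prior degrees of freedom). P-values were adjusted by Benjamini-Hochberg over 14912 genes, with a threshold of 0.05. The fit was also run on simulated counts with changes larger than most member differences given here, so that run does not bear on them. Intervals of log2 fold changes use a t distribution with 10.9 degrees of freedom. DESeq2 1.42.0, limma 3.58.1 on log2(FPKM + 0.1) and log2(FPKM + 1), library totals, upper-quartile factors, other filters, only the groups compared, a replicate block and leaving out each library were the alternatives, 18 in all.

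Members and lists were chosen with earlier results of these data known. Values by library are given for the 2 most abundant members of each role by FPKM, members called by edgeR or DESeq2, the 4 smallest unadjusted p-values per comparison, and Axin2, Lef1, Ctnnb1, Lrp5, Lrp6, Tcf7l2, Rnf43 and Znrf3, 19 members in all. The other 16 are given by level or range. Fzd3, Sfrp5, Wnt6, Wnt7b and Wnt10a were added after their values were seen. Of the other lists, called genes and the 2 smallest p-values per comparison are named, and Porcn and Lgr5 were added. No 2 replicate libraries were copies (chi-square per degree of freedom of their counts 30.3 to 230). The tables hold no coordinates. RefSeq promoter windows of GRCm38.p6 were matched by gene number, and no position was carried over to GRCm39.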

Additional observations from a re-analysis of the deposited data

How the results depend on the processing

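Of 1026 alternative values of 19 members in 3 comparisons, 951 kept their sign, 75 turned it and 1 passed the threshold (Fzd6, DESeq2), and 35 of 57 pairs of member and comparison kept their sign in all 18 alternatives. In DIO against control, 14 genes were called, but 185 with DESeq2, 22 with library totals, 37 without a filter, 4 with only the 2 groups and 0 to 140 with 1 library left out (140 without control 2, 0 without DIO 1; 3, 2, 4, 3 and 4 without control 1, control 3, DIO 2, DIO 3 and SG 3). In SG against DIO, 0 were called (1331 at an unadjusted p under 0.05), but 80 with DESeq2, 6 without a filter, 179 with only the 2 groups and 0 to 117 with 1 library left out (117 without control 2). In SG against control, 0 were called (1208 unadjusted), but 54 with DESeq2, 3 without a filter, 2 with limma at either pseudocount and 0 to 6 with 1 library left out (6 without SG 1, 3 without control 2, 1 without SG 3). Members called stayed at 0 except 1 with DESeq2 in SG against control. The members' median moved to 0.115 with library totals and 0.098 with limma at 0.1 for DIO against control. For SG against DIO it moved to -0.092, -0.081 and, with 1 library left out, -0.090 to 0.059. Library totals shifted the median of all genes by 0.101 (DIO against control) and -0.084 (SG against DIO). With a replicate block 18, 0 and 0 genes were called. Deviations of same-numbered libraries correlated at -0.102 to 0.376, and those of differently numbered libraries at -0.342 to 0.293. With 3 libraries per group these values cannot settle whether the numbers pair the libraries. The main fit did not pair them.

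The signs that turned belonged to values near 0 apart from Lef1 and, with 1 library left out, Axin2, and the cause was not tested. In DIO against control, DESeq2 gave Sfrp1 -0.00488, Ctnnb1 -0.00130 and Tcf7l2 -0.00272, and no filter gave Sfrp1 -0.00226 and Tcf7l2 -0.00186. Library totals gave Wnt5b 0.00578, Fzd7 0.038, Lrp5 0.011 and Rnf43 0.072, limma at 0.1 gave Fzd7 0.034, Lrp5 0.015 and Rnf43 0.075, and limma at 1 gave Wnt5b 0.000814, Fzd7 0.031, Lrp5 0.014 and Rnf43 0.066. In SG against DIO, Lrp6 was 0.014 with DESeq2 and 0.00910 without a filter and 0.00865 with only the 2 groups. Lrp5, Rnf43 and Ctnnb1 were -0.074, -0.068 and -0.015 with library totals, -0.071, -0.071 and -0.013 with limma at 0.1, and -0.066, -0.063 and -0.013 with limma at 1. In SG against control, Rnf43 was 0.00434 with library totals, 0.00363 with limma at 0.1 and 0.00337 with limma at 1. With 1 library left out, the ranges in DIO against control were Fzd7 -0.178 to 0.083, Lrp5 -0.158 to 0.022, Sfrp1 -0.096 to 0.162, Rnf43 -0.171 to 0.040, Ctnnb1 -0.026 to 0.052, Tcf7l2 -0.131 to 0.134, Lef1 -1.23 to 1.34 and Axin2 -0.066 to 0.554. In SG against DIO they were Wnt5b -0.156 to 0.059, Lrp5 -0.027 to 0.059, Lrp6 -0.080 to 0.076, Rnf43 -0.081 to 0.117 and Axin2 -0.183 to 0.228. In SG against control they were Wnt4 -0.067 to 0.187, Fzd4 -0.083 to 0.057, Lrp5 -0.141 to 0.030, Sfrp2 -0.204 to 0.195, Rnf43 -0.148 to 0.090, Fzd5 -0.00291 to 0.180 and Axin2 -0.018 to 0.544.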

Other observations

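Some Wnt genes lie side by side in the genome, and the RefSeq gene table of the mouse (GRCm38.p6, used for the order of genes only) placed 8 of the 18 matched ligands in 4 such pairs. In 2 pairs 1 gene was reported and its neighbour was not. Wnt9a had 16 to 72 counts per library and its neighbour Wnt3a 0 to 6, while Wnt10b had 15 to 48 counts and Wnt1 0 to 1. In the pair of Wnt6 and Wnt10a both genes were reported at low levels, with 1 to 19 and 4 to 23 counts per library. In the pair of Wnt9b and Wnt3 neither was, with 0 to 5 and 0 to 1 counts. Wnt4, the most abundant ligand, was in none of these pairs.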
